A study of Arabidopsis thaliana with 6 samples.

Results

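The genes described here encode the machinery that carries proteins into mitochondria of Arabidopsis thaliana. They are 32 genes of the TOM, SAM, TIM17:23, TIM22, small TIM and MIA complexes, listed by gene ID with no threshold on a measured value, of 27444 genes in the deposited tables. All 32 were found, and all 32 passed the filter on low counts that left 20157 genes for testing. RNA sequencing of seedlings compared 3 lon1-2atg5-1 libraries with 3 atg5-1 libraries. lon1-2atg5-1 plants carry the T-DNA alleles lon1-2, in the gene of the mitochondrial protease LON1, and atg5-1, in the autophagy gene ATG5. atg5-1 plants carry the second allele only, so both groups carry the ATG5 knockout and the comparison asks what the loss of LON1 changes in that background. Both lines are in Col-0, and the double mutant is 1 line with 1 lon1 allele. Seedlings grew under long days without treatment, and their age is given as 7 days in the description of the series and as 10 days in the methods of the study. Whether the 3 libraries of a genotype came from separate plantings is not stated, so the p-values measure only the spread between these libraries, which may be technical.

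Most mitochondrial proteins are made in the cytosol and are imported after synthesis. The TOM complex of the outer membrane recognises them and lets them through, the SAM complex inserts barrel-shaped proteins into the outer membrane, and the TIM17:23 complex moves proteins with an N-terminal presequence across the inner membrane. Small TIM proteins carry hydrophobic cargo through the intermembrane space to the TIM22 complex, which inserts carrier proteins into the inner membrane, while MIA40 and ERV1 trap small cysteine-rich proteins in that space by forming disulfide bonds. Several of these subunits are encoded by more than 1 gene in Arabidopsis.

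Libraries held between 21964283 and 23929531 counts in lon1-2atg5-1 and between 22154558 and 22972992 in atg5-1. LON1 had 1.16 to 2.55 FPKM (fragments per kilobase of exon, scaled to the library total) in lon1-2atg5-1, against 6.95 to 8.53 in atg5-1, with a log2 fold change of -2.10 (edgeR adjusted p = 0.000141). ATG5 transcripts were counted in both groups, at 12.3 to 27.1 FPKM in lon1-2atg5-1 and 9.09 to 10.8 FPKM in atg5-1, and were called higher in the double mutant although both groups carry atg5-1 (log2 fold change 0.98, edgeR adjusted p = 0.00786). Over 27.6% of its exonic length ATG5 overlaps AT5G17280 on the opposite strand, and the part of this overlap in its values was not tested. The lon1-2atg5-1 libraries spread more than those of atg5-1. Chi-square per degree of freedom between pairs of libraries was 12.6 to 33.1 in lon1-2atg5-1 and 3.92 to 5.8 in atg5-1, and the median coefficient of variation of the 32 import genes was 8.36% in lon1-2atg5-1 and 5.88% in atg5-1. Marker genes of cell types also differed. Of 6 root genes, 4 were called lower, where 25.8% of all genes tested were. The nitrate transporter gene NRT2.1 was higher (3.59), with 25, 25 and 38 counts in lon1-2atg5-1, against 3, 3 and 1 in atg5-1. The 6 root genes summed to 1290 to 1480 FPKM in lon1-2atg5-1 and 1410 to 1540 FPKM in atg5-1. Most of this was PYK10 (1270 to 1460 and 1360 to 1480 FPKM), which was not called (-0.03). The Casparian strip genes CASP1 and CASP2 (log2 fold changes -1.37 and -1.39) and the root hair genes EXPA7 and COBL9 (-1.79 and -1.82) were among those lower. The 5 embryo and seed genes summed to 7.08 to 16.5 FPKM in lon1-2atg5-1 and 0.949 to 1.28 FPKM in atg5-1. CRA1 (4.91), CRC (6.52), SESA2 (6.49) and OLEO1 (3.54) were higher, each with 0 to 6 counts per library in atg5-1. These and NRT2.1 passed the filter on low counts only through lon1-2atg5-1, so their log2 fold changes are descriptions without a test. EM6 was not called (-0.51), at 0.58 to 0.632 FPKM in lon1-2atg5-1 and 0.815 to 1.0 FPKM in atg5-1, without overlap of the groups. Of 5 leaf mesophyll genes RBCS1A was higher (0.34) and LHCB1.1 lower (-0.36), of 3 genes of dividing cells CYCB1;1 was higher (0.80), and the senescence gene SAG13 was higher (3.56) while SAG12 was at or near 0 in every library. Whether these differences had a part in the values below was not tested, and in whole seedlings fewer cells of a type cannot be told apart from less RNA per cell.

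Most import genes had more transcript in lon1-2atg5-1. A gene was called at an adjusted p under 0.05 in the quasi-likelihood test of edgeR, with p-values adjusted by Benjamini and Hochberg over all genes tested. By this rule 25 of the 32 genes rose and 2 fell, where 27.7% of all genes tested were called higher, 25.8% lower and 53.5% in either direction. With a fold change over 1.5 as well, 17 of 32 rose and 0 fell, against 14.0% of all genes higher and 13.7% lower. The median log2 fold change was 0.66 over the import genes and 0.00 over all genes. TIM23-3 entered the test only through the group where it is high, and without it 24 of 31 genes rose, 16 of them past 1.5-fold, with a median of 0.64. For 23 of the 32, every lon1-2atg5-1 library lay above every atg5-1 library, which held for 29.3% of all genes tested. The 2 genes that fell were TIM23-1 and ERV1, and the 5 that were not called were TOM20-1, TOM22-I, the metaxin gene, TIM17-3 and TIM23-2. Among the 25 genes that rose, lon1-2atg5-1 replicate 1 gave the highest value of its genotype for 18 and replicate 3 the lowest for 20.

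**Figure D1:**
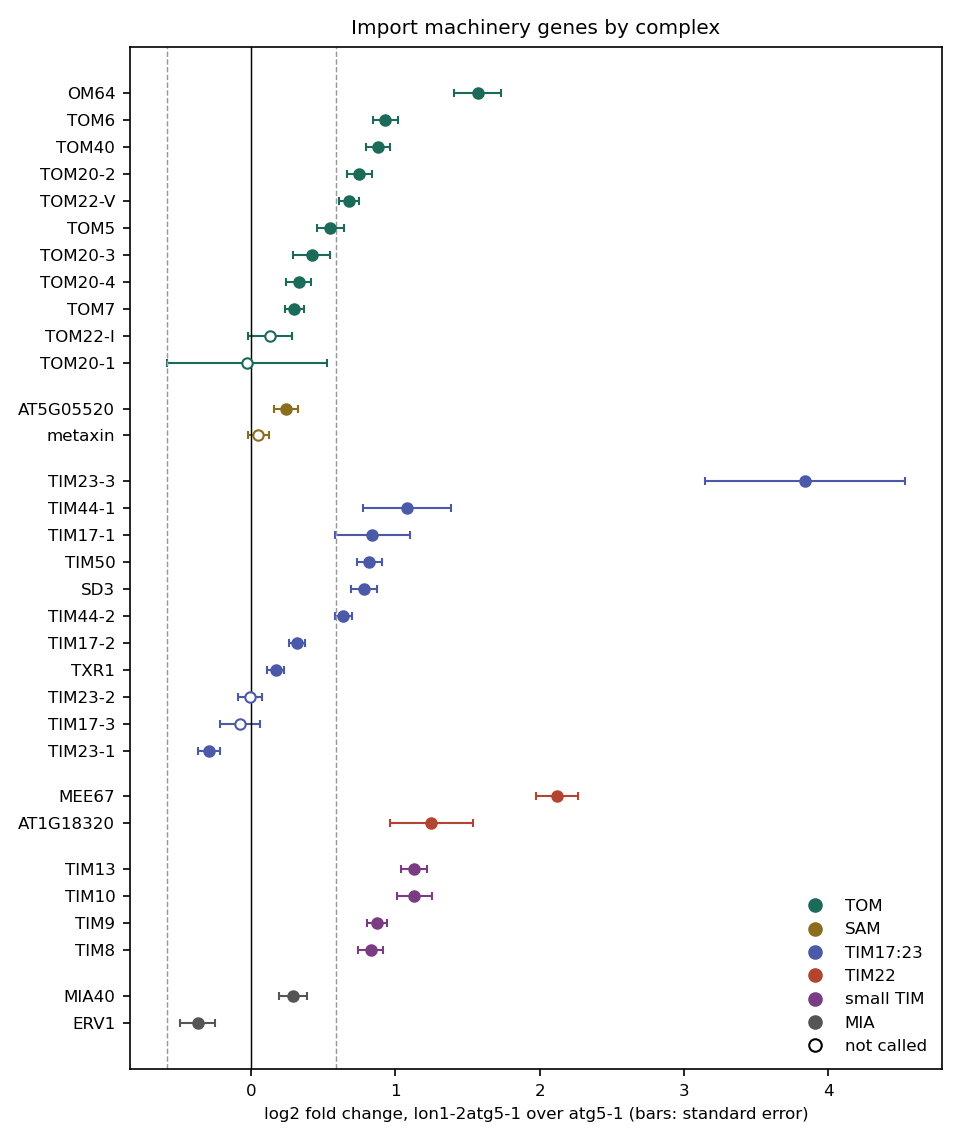
The log2 fold change of each of the 32 import genes, lon1-2atg5-1 over atg5-1, is drawn with its standard error and grouped by complex; open circles were not called and dashed lines mark 1.5-fold in either direction. The small TIM and TIM22 genes all lie right of 1.5-fold, TIM23-1 and ERV1 lie left of 0, and TIM23-3, with 4 counts in all atg5-1 libraries together, lies far from the other genes at 3.84.

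The largest part of the machinery by summed level was the TOM complex, with a median log2 fold change of 0.55. Of its 11 genes 9 rose and none fell, where 27.7% of all genes tested were called higher and 25.8% lower. TOM40 (AT3G20000), the channel through which nearly all imported proteins pass, had 43.6, 38.2 and 35.1 FPKM in lon1-2atg5-1, against 23.4, 19.6 and 21.8 in atg5-1. All double mutant libraries lay above all atg5-1 libraries. TOM40 rose by 0.88 on the log2 scale (standard error 0.0835, edgeR adjusted p = 0.000100). TOM6 (AT1G49410), a small subunit that helps to hold the complex together in yeast, had 57.7, 57.7 and 51.3 FPKM in lon1-2atg5-1, against 32.4, 25.9 and 31.1 in atg5-1. It rose by about the same amount, with a log2 fold change of 0.93 (standard error 0.0869, edgeR adjusted p = 9.6e-05). AT1G49405 shares 14.6% of the exonic length of TOM6 on the same strand. The other small subunits rose less. TOM5 (AT5G08040) averaged 38.9 ± 4.9 FPKM in lon1-2atg5-1 and 27.1 ± 1.63 in atg5-1 (SD, n = 3 each), with 0.55 as its log2 fold change. TOM7 (AT5G41685), the most abundant import transcript per length in both genotypes, averaged 67.4 ± 5.7 FPKM in lon1-2atg5-1 and 55.7 ± 2.73 in atg5-1 and differed by 0.30 on the log2 scale. Over 59.3% of its exonic length, TOM7 overlaps AT5G41680 on the opposite strand. The strand setting of the read counting is not given in the sources used here. Reads from the overlap may therefore have been counted for either gene or for neither. AT5G41680 had 12 to 28 counts per library, against 672 to 923 for TOM7. Smaller overlaps on the opposite strand carry the same uncertainty. The larger of these are in TIM10 (16.6%, with the long non-coding RNA gene AT2G08350), TOM5 (13.3% of the exonic length), TIM23-2 (10.7%), the metaxin gene (10.5%) and TIM23-1 (5.5%). AT5G08050, opposite TOM5, had 2399 to 3248 counts per library, against 422 to 723 for TOM5.

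OM64 (AT5G09420, chromosome 5 from 2928173 to 2932021, 13 exons), an outer membrane receptor for precursors related to a chloroplast import protein, showed the largest rise among the 11 TOM genes listed here. It had 13.8, 11 and 8.2 FPKM in lon1-2atg5-1, against 3.99, 3.58 and 3.75 in atg5-1. The lowest double mutant library was still above the highest atg5-1 library, although the double mutant libraries differed among themselves. OM64 rose by 1.57 on the log2 scale (standard error 0.162, edgeR adjusted p = 0.000143), or 2.96-fold.

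The TOM20 receptors bind presequences on the mitochondrial surface, and Arabidopsis has 4 genes for them. TOM20-2 (AT1G27390) had 33.6, 28.3 and 27.6 FPKM in lon1-2atg5-1, against 19.8, 17.4 and 17 in atg5-1. Its groups did not overlap, and the log2 fold change was 0.75 (standard error 0.0851, edgeR adjusted p = 0.000219). TOM20-4 (AT5G40930) had 30.1, 28.0 and 26.1 FPKM in lon1-2atg5-1, against 24.7, 23.3 and 20.2 in atg5-1, a smaller rise of 0.33 on the log2 scale (edgeR adjusted p = 0.0121). TOM20-3 (AT3G27080) had 25.2, 27.0 and 19.7 FPKM in lon1-2atg5-1, against 20.4, 15.5 and 18.8 in atg5-1. Its groups overlapped. Its log2 fold change was 0.42 with an edgeR adjusted p of 0.0242, and the call was lost in 4 of 13 alternatives. The edgeR adjusted p was 0.0866 without lon1-2atg5-1 replicate 2, 0.0862 without atg5-1 replicate 2 and 0.0575 without atg5-1 replicate 3. In limma on log2(FPKM + 1) the adjusted p was 0.0503. TOM20-1 (AT3G27070), which lies next to TOM20-3 on chromosome 3, was close to the limit of detection, with 23, 9 and 4 counts in lon1-2atg5-1 and 14, 9 and 14 in atg5-1, and no difference was detectable at this depth. The 3 expressed TOM20 genes were at similar levels in atg5-1, and in lon1-2atg5-1 the share of TOM20-2 in the summed FPKM of all 4 genes was 36.3% ± 2.12, against 30.4% ± 0.354 in atg5-1 (SD, n = 3 each).

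TOM22 of plants is a short form of the central TOM receptor of fungi. TOM22-V (AT5G43970) had 55.6, 49.3 and 47.3 FPKM in lon1-2atg5-1, against 33.5, 32 and 31.1 in atg5-1, and its log2 fold change was 0.68 (standard error 0.0691, edgeR adjusted p = 0.000128). TOM22-I (AT1G04070) had 7.03, 7.39 and 7.21 FPKM in lon1-2atg5-1, against 8.14, 5.74 and 6.28 in atg5-1. Its groups overlapped and it was not called (log2 fold change 0.13, edgeR adjusted p = 0.495). The more abundant of the pair was therefore the one that passed the test.

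The SAM genes differed little between genotypes. AT5G05520, an OMP85 family gene of the SAM50 type, had 17.1, 14.2 and 14.1 FPKM in lon1-2atg5-1, against 14.2, 12.5 and 12.6 in atg5-1. The groups overlapped. Its log2 fold change was 0.24 with an edgeR adjusted p of 0.0416, and the call was lost in 7 of 13 alternatives, with adjusted p = 0.105 without lon1-2atg5-1 replicate 1, 0.132 without atg5-1 replicate 2 and 0.131 without atg5-1 replicate 3. The metaxin gene AT2G19080, whose animal relatives are partners of SAM50, had 17.6, 18.0 and 15.3 FPKM in lon1-2atg5-1, against 17.7, 15.9 and 16.7 in atg5-1. The groups overlapped, and it was not called (log2 fold change 0.05, edgeR adjusted p = 0.618).

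**Figure D2:**
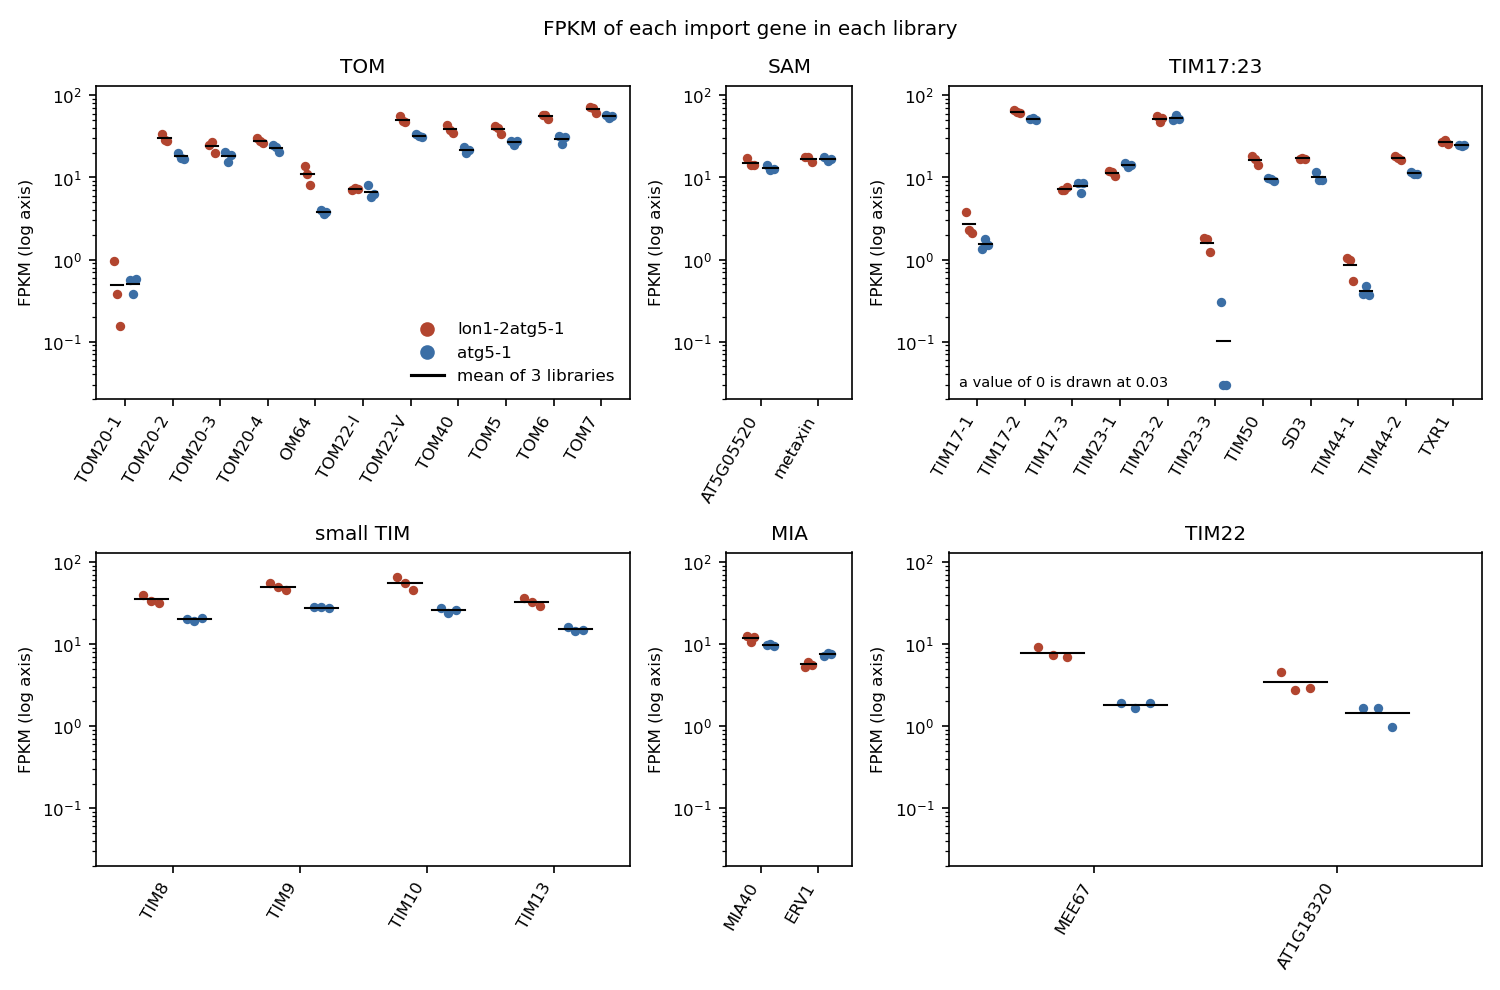
FPKM of each import gene in each library on a log axis, with lon1-2atg5-1 left of atg5-1 for every gene and a line at the mean of 3 libraries. The small TIM genes and OM64 show a gap between genotypes, TOM22-I, TIM17-3 and TIM23-2 show none, and TIM23-3 has 2 atg5-1 libraries at 0.

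In the TIM17:23 complex, 8 of 11 genes rose and 1 fell, where 27.7% of all genes tested were called higher and 25.8% lower. The median log2 fold change over the 11 was 0.64. Both the 8 and this median include TIM23-3, which entered the test only through the double mutant. The main channel genes TIM17-2 and TIM23-2 had log2 fold changes of 0.32 and -0.01, while the genes of the receptor TIM50, the TIM21-type subunit and the motor tether TIM44 were past 1.5-fold. TIM50 (AT1G55900), the inner membrane receptor for presequences, had 18.3, 16.8 and 14.3 FPKM in lon1-2atg5-1, against 9.83, 9.63 and 8.98 in atg5-1. The groups did not overlap, and the log2 fold change was 0.82 (standard error 0.0884, edgeR adjusted p = 0.000169). SD3 (AT4G00026), whose product has a TIM21 domain and so resembles the yeast subunit that contacts the TOM complex, had 16.9, 17.5 and 16.9 FPKM in lon1-2atg5-1, against 11.6, 9.39 and 9.44 in atg5-1. SD3 rose by 0.78 on the log2 scale (standard error 0.0898, edgeR adjusted p = 0.000232). TIM44-2 (AT2G36070), which recruits the HSP70 motor to the channel, had 18.2, 17.2 and 16.3 FPKM in lon1-2atg5-1, against 11.6, 11 and 11.1 in atg5-1. The difference was 0.64 on the log2 scale (standard error 0.0603, edgeR adjusted p = 9.7e-05), with no overlap of the groups. Its isoform TIM44-1 (AT2G20510) averaged 0.863 FPKM in lon1-2atg5-1 and 0.411 in atg5-1. It had 37, 35 and 21 counts in lon1-2atg5-1, against 14, 17 and 13 in atg5-1. The log2 fold change of TIM44-1 was 1.08 (standard error 0.306, edgeR adjusted p = 0.0174), and the call did not hold without lon1-2atg5-1 replicate 1 (adjusted p = 0.0505), lon1-2atg5-1 replicate 2 (0.0625), atg5-1 replicate 1 (0.0604) or atg5-1 replicate 3 (0.0638). In limma on log2(FPKM + 1) it was 0.39. TXR1 (AT3G59280), the PAM16 subunit that regulates the motor, had 27.2 ± 1.54 FPKM in lon1-2atg5-1 and 24.7 ± 0.287 in atg5-1 (SD, n = 3 each). Its log2 fold change was 0.17, and the edgeR adjusted p of 0.0478 passed the threshold in only 1 of 13 alternatives, the one without lon1-2atg5-1 replicate 3.

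TIM17-2 (AT2G37410) made up most of the TIM17 transcript. It had 66.5, 62.6 and 60.2 FPKM in lon1-2atg5-1, against 51.7, 52.8 and 50.2 in atg5-1, and rose by 0.32 on the log2 scale (standard error 0.0565, edgeR adjusted p = 0.002). TIM17-3 (AT5G11690) had 7.03, 7.09 and 7.61 FPKM in lon1-2atg5-1, against 8.54, 6.42 and 8.56 in atg5-1, and was not called (log2 fold change -0.08, edgeR adjusted p = 0.631). TIM17-1 (AT1G20350), the least abundant, had 82, 49 and 48 counts in lon1-2atg5-1, against 30, 38 and 32 in atg5-1. Replicate 1 of the double mutant stood above its other libraries, and the groups did not overlap. It rose by 0.84 on the log2 scale (standard error 0.262, edgeR adjusted p = 0.0257). The call was lost without lon1-2atg5-1 replicate 1 (log2 fold change 0.56, adjusted p = 0.0773), without atg5-1 replicate 1 (0.0877) and without atg5-1 replicate 3 (0.0766).

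The TIM23 genes moved in different directions. TIM23-1 (AT1G17530) had 11.9, 11.8 and 10.5 FPKM in lon1-2atg5-1, against 15.1, 13.4 and 14.1 in atg5-1, so that every double mutant library lay below every atg5-1 library. It fell by 0.29 on the log2 scale (standard error 0.0758, edgeR adjusted p = 0.0128). TIM23-2 (AT1G72750), the main isoform, had 55.4, 47.6 and 53.4 FPKM in lon1-2atg5-1, against 50.8, 58.1 and 51.8 in atg5-1, with full overlap (log2 fold change -0.01, edgeR adjusted p = 0.913). TIM23-3 (AT3G04800, chromosome 3 from 1314479 to 1315045, 1 exon) had 23, 22 and 17 counts in lon1-2atg5-1, against 4, 0 and 0 in atg5-1. The gene thus passed the filter on low counts only through the double mutant. The summed counts were 62 and 4, a ratio of 15.3 after scaling to the library totals that rests on 4 counts in atg5-1. Its fitted log2 fold change of 3.84 is given as a description, with no test, and became 7.37 without atg5-1 replicate 1, the 1 library of that genotype with counts, and 1.25 in limma on log2(FPKM + 1). At its level in lon1-2atg5-1, TIM23-3 reached 2.47% ± 0.496 of the summed TIM23 FPKM (SD, n = 3).

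The TIM22 pair had the largest median log2 fold change of the 6 complexes, 1.69. MEE67 (AT3G10110, chromosome 3 from 3116110 to 3117894, 2 exons) and AT1G18320 (chromosome 1 from 6304360 to 6305689, 4 merged exons) are annotated as members of the family of channel proteins that also holds TIM17 and TIM23. MEE67 had 297, 228 and 235 counts in lon1-2atg5-1, against 62, 53 and 60 in atg5-1. In FPKM these are 9.31, 7.31 and 6.92 in lon1-2atg5-1 and 1.9, 1.68 and 1.91 in atg5-1, with a wide gap between the genotypes. The log2 fold change was 2.12 (standard error 0.143, edgeR adjusted p = 2.5e-05), or 4.36-fold. AT1G18320 had 71, 42 and 49 counts in lon1-2atg5-1, against 27, 26 and 15 in atg5-1. All double mutant values were above all atg5-1 values. The log2 fold change was 1.25 (standard error 0.288, edgeR adjusted p = 0.00692).

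The 2 genes of the TIM22 pair are near copies, and their separate counts are uncertain for that reason. By BLAST, 90.4% of the exonic length of AT1G18320 matched MEE67 at 98.6% identity, and 424 of 429 aligned coding bases were the same. Of all windows of 125 bases in the exons, 13.4% of those in AT1G18320 and 5.94% of those in MEE67 occurred without a mismatch in the other gene. MEE67 also shares 234 bases without a mismatch with the exons of AT1G18330. The stretch below is shown because it holds 2 of the 5 bases that differ within the aligned coding sequence. It is taken from 1 coding exon of each gene in the TAIR10.1 genome, with the bases that differ in capitals. Coding intervals were merged over the annotated transcripts of a gene. In the reading frame that is open throughout this stretch in MEE67, the last base in capitals makes a stop codon in AT1G18320. Whether AT1G18320 gives a full-length protein was not tested.
MEE67, chr3:3116762-3116861, plus strand: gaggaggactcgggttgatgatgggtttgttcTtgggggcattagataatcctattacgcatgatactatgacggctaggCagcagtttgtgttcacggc
AT1G18320, chr1:6304916-6305015, plus strand: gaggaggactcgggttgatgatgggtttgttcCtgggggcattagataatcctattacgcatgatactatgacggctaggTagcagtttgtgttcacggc
Counted together, the pair had 368, 270 and 284 counts in lon1-2atg5-1, against 89, 79 and 75 in atg5-1, a log2 ratio of 1.91 after scaling to the library totals. These sums do not depend on how reads were divided between the copies, although reads that match both may not have been counted at all. Reads from the 234 bases shared with AT1G18330 could still change the sums, which was not tested. In summed FPKM, with each copy divided by its own length, the pair had 13.8, 10 and 9.85 in lon1-2atg5-1, against 3.58, 3.36 and 2.88 in atg5-1, a log2 ratio of 1.78.

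All 4 small TIM genes rose, each past 1.5-fold, where 14.0% of all genes tested did. Small TIM proteins work in pairs as chaperones of the intermembrane space, TIM9 with TIM10 and TIM8 with TIM13. TIM10 (AT2G29530) had 66.2, 54.8 and 44.9 FPKM in lon1-2atg5-1, against 27.2, 23.9 and 26.0 in atg5-1. TIM10 rose by 1.13 on the log2 scale (standard error 0.121, edgeR adjusted p = 0.000163), and 23.1% of its exonic length is shared with a long non-coding RNA annotated on the same strand. TIM9 (AT3G46560) had 54.9, 48.9 and 46.0 FPKM in lon1-2atg5-1, against 27.9, 27.9 and 27.6 in atg5-1. The atg5-1 values lay almost on top of each other, and the log2 fold change was 0.87 (standard error 0.0699, edgeR adjusted p = 4.8e-05). TIM13 (AT1G61570) had 36.0, 32.8 and 28.9 FPKM in lon1-2atg5-1, against 16.3, 14.3 and 14.8 in atg5-1, and rose by 1.13 on the log2 scale (standard error 0.0886, edgeR adjusted p = 4.3e-05). TIM8 (AT5G50810) had 39.7, 33.8 and 31.7 FPKM in lon1-2atg5-1, against 20.4, 19.1 and 20.8 in atg5-1, and rose by 0.83 on the log2 scale (standard error 0.0871, edgeR adjusted p = 0.000151). For none of the 4 genes did the genotypes overlap, and the calls held in all 13 alternatives.

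The MIA genes, by contrast, moved in opposite directions and by small amounts. MIA40 (AT5G23395), an oxidoreductase whose yeast relative folds small TIM proteins on arrival, had 12.5, 10.5 and 12.1 FPKM in lon1-2atg5-1, against 9.61, 10.1 and 9.51 in atg5-1. The groups did not overlap, but the lowest double mutant value was close to the highest atg5-1 value. Its log2 fold change was 0.29 with an edgeR adjusted p of 0.0343. The call was lost in 8 of 13 alternatives, with adjusted p = 0.0771 without lon1-2atg5-1 replicate 1, 0.0825 without lon1-2atg5-1 replicate 3 and 0.0996, 0.0574 and 0.101 without atg5-1 replicates 1, 2 and 3. ERV1 (AT1G49880), which reoxidises MIA40, had 5.24, 6.1 and 5.6 FPKM in lon1-2atg5-1, against 7.06, 7.69 and 7.61 in atg5-1. Every double mutant library was below every atg5-1 library. ERV1 fell by 0.37 on the log2 scale (standard error 0.122, edgeR adjusted p = 0.0319). That call was lost without lon1-2atg5-1 replicate 1 (adjusted p = 0.0888), atg5-1 replicate 2 (0.0966) and atg5-1 replicate 3 (0.0906), and in DESeq2 (0.0592).

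Summed over the genes of each complex, FPKM was compared between genotypes without a test. The TOM genes together had 382, 358 and 317 FPKM in lon1-2atg5-1, against 253, 221 and 235 in atg5-1 (log2 ratio of the means 0.58). The small TIM genes had 197, 170 and 151 FPKM in lon1-2atg5-1, against 91.8, 85.2 and 89.2 in atg5-1 (0.96). TIM17:23 had 228, 214 and 209 FPKM in lon1-2atg5-1, against 186, 187 and 181 in atg5-1 (0.23). TIM17-2 and TIM23-2, with log2 fold changes of 0.32 and -0.01, carry most of that sum, and it lies below the median of 0.64 over the 11 genes. The SAM genes had 34.6, 32.2 and 29.5 FPKM in lon1-2atg5-1, against 31.8, 28.3 and 29.3 in atg5-1, and the MIA genes had 17.8, 16.6 and 17.7 in lon1-2atg5-1, against 16.7, 17.8 and 17.1 in atg5-1, and both sets overlapped between genotypes. All 32 genes together had 873, 801 and 734 FPKM in lon1-2atg5-1, against 583, 543 and 555 in atg5-1, a log2 ratio of 0.52.

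**Figure D3:**
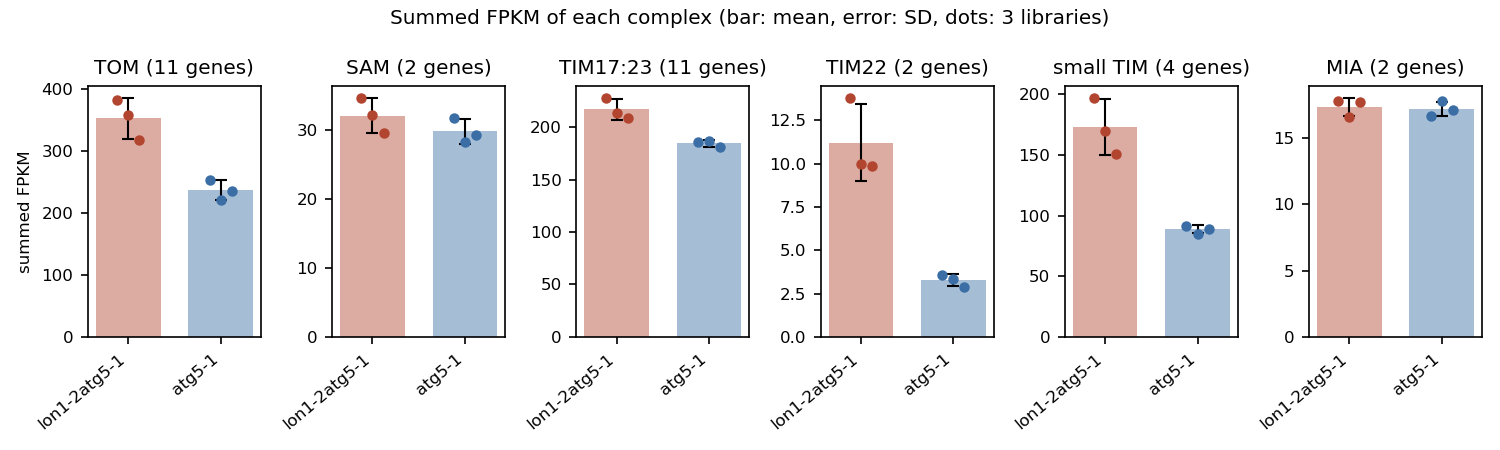
Summed FPKM of the genes of each complex, with lon1-2atg5-1 left of atg5-1; bars are means, error bars the SD and dots the 3 libraries, and each panel has its own axis from 0. The TIM22 and small TIM sums are furthest apart between genotypes, at log2 ratios of 1.78 and 0.96, and the MIA sums overlap at 0.01.

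Isoforms of a subunit were compared with each other within libraries, which removes differences of scale between libraries. Among 6 subunits with more than 1 gene, there were 15 pairs of isoforms, of which 13 could be tested because neither isoform was at 0. The log2 ratio of FPKM did not overlap between genotypes for 4 pairs. How often this happens for pairs of other genes was not computed. TOM20-2 over TOM20-4 was 0.16, 0.02 and 0.08 in lon1-2atg5-1, against -0.32, -0.42 and -0.24 in atg5-1. TOM22-I over TOM22-V was -2.98, -2.74 and -2.71 in lon1-2atg5-1, against -2.04, -2.48 and -2.31 in atg5-1, so the share of the rarer gene was smaller in the double mutant. TIM17-1 over TIM17-2 was -4.14, -4.76 and -4.86 in lon1-2atg5-1, against -5.25, -4.89 and -5.07 in atg5-1, so here the share of the rarer gene was larger. MEE67 over AT1G18320 was 1.04, 1.42 and 1.24 in lon1-2atg5-1, against 0.18, 0.00 and 0.98 in atg5-1, subject to the near identity of the pair. Each of these had p = 0.1 in an exact two-sided permutation test, the smallest that 3 against 3 libraries can give, and p = 0.26 after adjustment over the 13 pairs, so none of the isoform ratios could pass the threshold in this design.

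**Figure D4:**
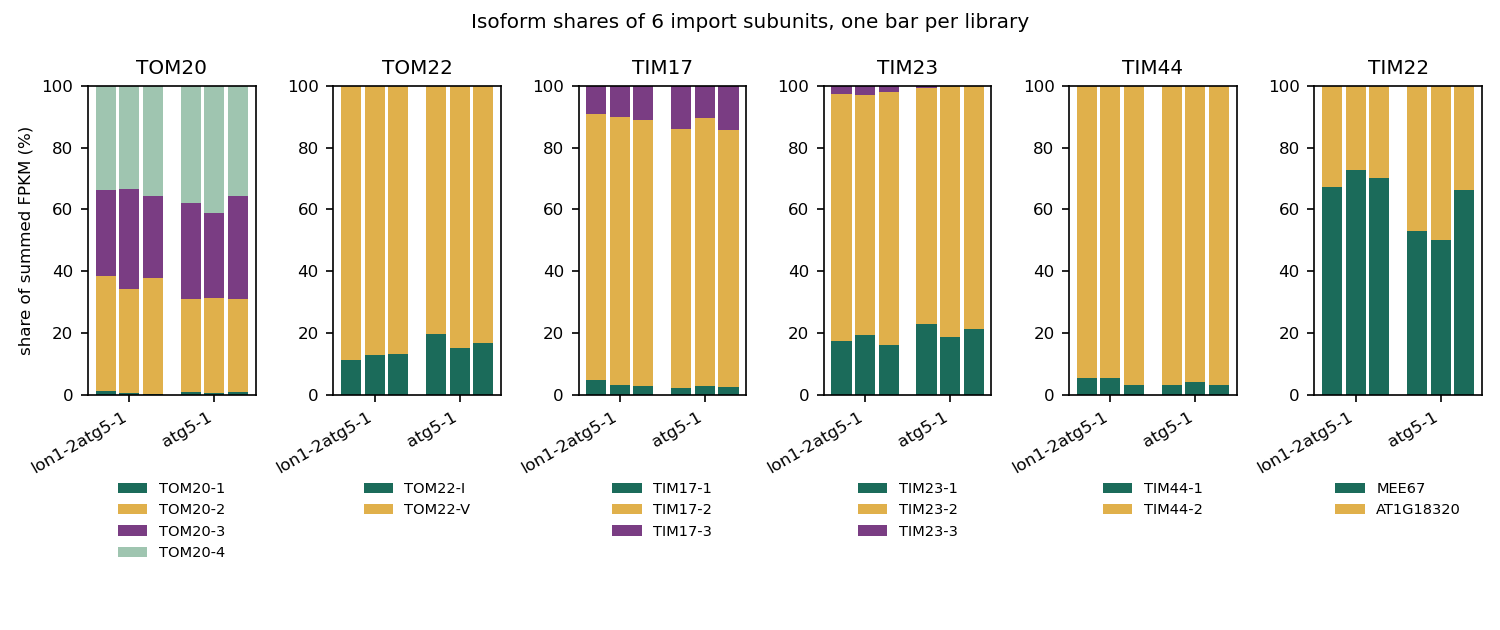
Share of each isoform in the summed FPKM of its subunit, in percent, one stacked bar per library with the 3 lon1-2atg5-1 libraries left of the 3 atg5-1 libraries. The main isoforms TIM17-2, TIM23-2, TIM44-2 and TOM22-V kept at least 76.7% in every library, and the MEE67 share averaged 70.1% in lon1-2atg5-1 and 56.5% in atg5-1.

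Genes of the import pathway outside the 32 were read from the same fit. Of 18 such genes, 16 rose, 0 fell and 11 rose past 1.5-fold, with a median log2 fold change of 0.85, where 27.7% of all genes tested were called higher and 14.0% higher past 1.5-fold. Further copies of 3 import subunits had larger log2 fold changes than the copies described above, a difference that was not tested. TOM7-2 (AT1G64220) had 25.9, 23.8 and 20.6 FPKM in lon1-2atg5-1, against 4.13, 4.71 and 2.8 in atg5-1, and rose by 2.61 on the log2 scale (standard error 0.195, edgeR adjusted p = 3.6e-05), where TOM7 had 0.30. Its share in the summed FPKM of both TOM7 genes was 26.6%, 25.4% and 25.3% in lon1-2atg5-1, against 6.66%, 8.22% and 4.72% in atg5-1. The TOM40-type gene AT1G50400 had a log2 fold change of 2.07, at 1.47 to 3.41 FPKM in lon1-2atg5-1 and 0.406 to 0.644 in atg5-1. The SAM50-type gene AT3G11070 rose by 0.61 on the log2 scale, at 10.6 to 13.6 FPKM in lon1-2atg5-1 and 7.39 to 7.91 in atg5-1.

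Of 8 genes of the motor that pulls presequence proteins into the matrix, 6 were called higher, where 27.7% of all genes tested were. mtHSC70-1 and mtHSC70-2, the HSP70 chaperones of the motor, had log2 fold changes of 1.62 and 1.76. Their nucleotide exchange factors MGE2 and MGE1 had 1.46 and 1.48, and PAM16L, the copy of TXR1, had 0.88. The 5 genes listed for presequence processing were all called higher. Among them, MPPBETA was at 0.49, the metalloprotease gene AT5G51540 at 0.85 and AT1G09300, of the M24 metallopeptidase family, at 1.40. OXA1, which inserts proteins into the inner membrane from the matrix, had 0.85. AT2G35795 (0.06) and AT5G03030 (0.24) of the motor were not called.

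Promoter windows were searched for 3 short motifs because many of the genes moved together. A window ran from 250 bases before to 50 bases after the annotated start of the gene in TAIR10.1. Site II elements (TGGGCC or TGGGCT, on either strand) are known from promoters of plant nuclear genes for mitochondrial proteins. They occurred in 19 of 32 windows (59.4%), against 25.0% of the 20156 windows of tested protein-coding genes. Among the 17 import genes called past 1.5-fold 13 windows held a site II element, and 6 did among the other 15. TIM23-3, which entered the test only through the double mutant, is 1 of the 13. The near copies MEE67 and AT1G18320 are also among the 13, with their elements in the same stretch of letters, so they are not independent. OM64, TOM40, TIM9 and TIM10 were past 1.5-fold and held none. These shares are given without a test. The telo-box (AAACCCTA on either strand), known from promoters of genes for the translation machinery, was found in 8 of 32 windows (25.0%), against 5.46% of all. MEE67 and AT1G18320 are both among these 8, again with the same stretch of letters. The mitochondrial dysfunction motif (CTTG, any 5 bases, then CAAG or CACG, on either strand), which is bound by NAC factors in Arabidopsis, was found in 1 of 32 windows (3.12%), that of TIM50, against 1.16% of all. Each motif was searched on its own, and overlapping matches were each counted. A match describes letters only, and whether a factor binds there was not measured.

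**Figure D5:**
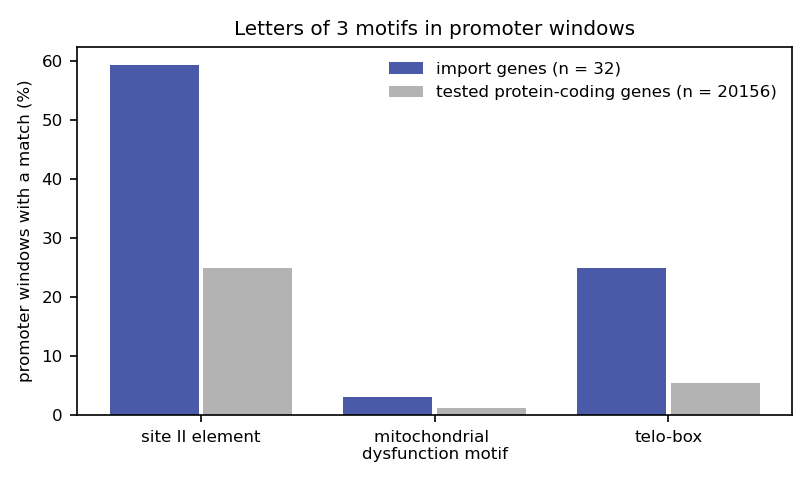
Percent of promoter windows with at least 1 match to each motif, for the 32 import genes left of the 20156 tested protein-coding genes. Site II elements occurred in 59.4% against 25.0% of windows, and the telo-box in 25.0% against 5.46%. The near copies MEE67 and AT1G18320, which hold both motifs in the same stretches of letters, are counted separately.

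The following stretches before the start of the gene are examples from genes called past 1.5-fold, chosen after the matches were seen, with the motif letters in capitals. The site II elements of TOM6, TIM17-1, TIM50, TIM44-1, TIM44-2 and TIM8 are not shown. The stretches printed run in the direction of transcription, and the first 7 hold site II elements while the last holds the mitochondrial dysfunction motif.
MEE67, chr3:3116015-3116069, plus strand: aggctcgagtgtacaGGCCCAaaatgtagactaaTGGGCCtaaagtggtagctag
AT1G18320, chr1:6304170-6304224, plus strand: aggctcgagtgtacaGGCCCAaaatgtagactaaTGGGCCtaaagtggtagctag
TIM23-3, chr3:1315171-1315235, minus strand: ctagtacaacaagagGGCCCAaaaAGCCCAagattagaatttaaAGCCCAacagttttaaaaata
TIM13, chr1:22719568-22719636, minus strand: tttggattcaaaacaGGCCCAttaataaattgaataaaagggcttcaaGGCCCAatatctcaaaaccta
TOM20-2, chr1:9515060-9515104, minus strand: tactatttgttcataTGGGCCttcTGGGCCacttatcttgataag
TOM22-V, chr5:17692692-17692777, plus strand: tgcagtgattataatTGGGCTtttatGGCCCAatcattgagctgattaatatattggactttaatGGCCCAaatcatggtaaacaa
SD3, chr4:13415-13495, minus strand: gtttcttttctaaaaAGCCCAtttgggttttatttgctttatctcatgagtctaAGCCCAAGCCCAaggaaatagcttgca
TIM50, chr1:20902923-20902965, plus strand: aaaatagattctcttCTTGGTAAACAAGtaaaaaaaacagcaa
The stretches of MEE67 and AT1G18320 are the same over 55 bases, so the near identity of the pair extends into the sequence before the genes, and they are not independent examples. Relative to the start of the gene the matches begin at -39 and -30 in TOM20-2, at -86 and -53 in TIM13 and at -175, -166 and -146 in TIM23-3.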

How the data were processed

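RNA of 6 seedling libraries, 3 per genotype, was analysed. Samples were grouped by their labels. The authors made stranded mRNA libraries, used Trimmomatic for trimming, HISAT2 for alignment and HTSeq for counting, with TAIR10 named as the build, and deposited raw counts per gene. They also deposited FPKM, credited to Cufflinks. Dividing a count by exonic length and library total gave back its FPKM to a relative error of at most 6.12e-08, with TAIR10.1 exonic lengths fitting all 23819 genes that had counts. Genes of the organelle genomes are not analysed here. Totals of 21964283 to 23929531 counts limit precision for genes with few counts.

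All genes kept by filterByExpr were scaled by TMM and tested by quasi-likelihood in edgeR 4.0.16 (R 4.3.3). Standard errors come from dividing the log2 fold change by the root of F, and can be too small at few counts. Isoform ratios were tested by exact permutation. The edgeR, DESeq2 and limma fits were tried on simulated counts, and the other steps were not. The simulation had few changed genes and the same spread in both groups, which differs from these data. Near copies were matches of at least 90% identity over 100 bp. Sequences were read from TAIR10.1, and coding sequences were aligned in Biopython 1.88. Alternatives were DESeq2 1.42.0, limma 3.58.1 on log2(FPKM + 1) and log2(FPKM + 0.1), scaling by library size, other count filters (none, or 10 counts in every library), a replicate block, other thresholds and each library left out. All import genes were accounted for. Genes past 1.5-fold, isoforms and genes of complexes with fewer than 5 genes were given in each library, and of other lists those past 1.5-fold were named. The import genes, other lists and motifs were chosen with earlier results of these data known. DESeq results of the authors were not used.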

Additional observations from a re-analysis of the deposited data

How the results depend on the processing

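The count of 27 import genes called was between 20 and 26 when each library was left out, where 43.3% to 56.5% of all genes tested were called. It was 24 with scaling by library size (53.2% of all genes) and 23 in DESeq2 (49.6%). It was 17 at an unadjusted p under 0.05 with a fold change over 1.5. The 17 genes past 1.5-fold became 7 at a fold change over 2. Shares over all genes were not computed for these other thresholds. The count called lower was 2, where 25.8% of all genes tested were called lower. It was 1 in DESeq2 and between 1 and 2 when each library was left out. With each library left out, the log2 fold change of TOM20-1 ranged from -0.89 to 0.39 and that of TIM23-2 from -0.06 to 0.06, and neither was called. The isoform ratio TOM20-3 over TOM20-4 differed by 0.08, and by -0.05 to 0.19 with each library left out, being -0.01 without lon1-2atg5-1 replicate 2 and -0.05 without atg5-1 replicate 2. The causes were not tested. Replicate numbers did not pair the libraries, since deviations of same-numbered libraries correlated at -0.0372, -0.115 and -0.00988. With the replicate number as a block 25 import genes were called (49.8% of all genes), and TXR1 (edgeR adjusted p = 0.0874) and MIA40 (0.0713) were not. The values of TOM20-1, TIM17-1, TIM23-3 and TIM44-1 rest on few counts.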
